A study of Homo sapiens with 4 samples.

Results

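The cytosolic ribosomal protein genes are the subject here: the genes for the proteins of the small (RPS) and large (RPL) subunits of the ribosome that works in the cytosol. Members were set by a rule on the name, and the family was chosen with earlier results of these data known. The rule takes protein-coding genes whose symbol begins with RPS or RPL and a number, plus RPLP0, RPLP1, RPLP2 and RPSA. Close paralogues are included, and pseudogenes and S6 kinases are left out. Of 86 such symbols in RefSeq, 50 had a named probe set among the 14812 genes tested, 18 of the small and 32 of the large subunit, and the other 36 are not analysed here. RPL5, RPLP0, RPLP1, RPLP2, RPSA and RPS27A are among those 36.

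The cells were BE(2)C, an established human neuroblastoma line. Arrays were made from 2 samples transfected with siRNA against SSRP1 and from 2 samples transfected with non-targeting control siRNA, all collected 72 hours after transfection with Lipofectamine. SSRP1 encodes a subunit of the histone chaperone FACT, and the comparison asks which transcripts differ when it is depleted. The labels give 1 catalogue number for the SSRP1 siRNA, so an effect of that siRNA other than through SSRP1 cannot be told apart. Whether replicates came from separate cultures is not stated there, so the spread behind each p-value is that of these samples alone and may be technical.

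Ribosomal proteins are made in matched amounts and assembled with ribosomal RNA in the nucleolus, and a surplus protein is degraded. Their genes are among the most transcribed by RNA polymerase II in dividing cells. Their mRNAs usually begin with a C followed by an unbroken run of C and T, the 5′ terminal oligopyrimidine (TOP) tract, through which mTORC1 and the RNA-binding protein LARP1 control their translation. In cancers such as neuroblastoma ribosome production is often raised, and in human Diamond-Blackfan anaemia loss of 1 copy of a ribosomal protein gene impairs red cell formation.

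The starts of 7 picked members are shown, among them RPL22L1 and RPL9, whose changes are described below. At the annotated start 6 of them carry this family signature and RPL9 does not. These are picked genes, and the share over the family is given below. RPL32, which had the highest change, is not shown and had no such run at its 3 annotated starts. No start was at hand for RPS15A. Each line holds 40 bases before and 20 bases after the transcription start that RefSeq annotates in GRCh38.p14, read 5′ to 3′ on the gene's strand. Capitals mark the run of C and T that begins with a C at the start itself, where it is at least 5 bases long.
RPL22L1: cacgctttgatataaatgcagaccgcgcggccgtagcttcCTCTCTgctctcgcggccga
RPL22: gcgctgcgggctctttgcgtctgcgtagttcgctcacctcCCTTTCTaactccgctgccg
RPL39: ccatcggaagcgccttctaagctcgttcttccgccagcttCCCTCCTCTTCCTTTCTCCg
RPS16: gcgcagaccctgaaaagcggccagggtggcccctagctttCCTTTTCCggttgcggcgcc
RPS6: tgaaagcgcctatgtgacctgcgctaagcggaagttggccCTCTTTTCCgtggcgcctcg
RPS19: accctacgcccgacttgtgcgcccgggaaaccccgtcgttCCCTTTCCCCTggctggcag
RPL9: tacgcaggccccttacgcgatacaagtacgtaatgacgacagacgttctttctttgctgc

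These lie at chr3:170870176-170870235 (RPL22L1), chr1:6199576-6199635 (RPL22), chrX:119791611-119791670 (RPL39), chr19:39435930-39435989 (RPS16), chr9:19380217-19380276 (RPS6) and chr4:39458903-39458962 (RPL9), all on the minus strand, and at chr19:41860215-41860274 (RPS19) on the plus strand. RPS19 has 2 annotated starts in the table, and the one with the longer run is shown. The runs are 6 bases long in RPL22L1, 7 in RPL22, 8 in RPS16, 9 in RPS6, 11 in RPS19 and 19 in RPL39. RPL9 has no such run at the annotated base, though its line holds a run of C and T further on that was not counted.

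Of the 45 members that the RefSeq table holds, 29 (64.4%) had a run of at least 5 at 1 or more annotated starts, against 6.24% of 15843 protein-coding genes in that table. The share was 64.7% in the small subunit (11 of 17) and 64.3% in the large subunit (18 of 28), and 8.70% among 69 mitochondrial ribosomal protein genes, whose products serve the separate ribosome of mitochondria. The letters TATAA, read on the gene's strand between 40 and 15 bases before the start, were found in 7 of the 45 members (15.6%), RPL22L1 among them, against 6.73% of protein-coding genes. The ETS factor letters CCGGAAG, searched on both strands of the 300 bases around each start, were found in 28.9% of members and 16.5% of protein-coding genes. The YY1 letters AAGATGGC, searched in the same way, were found in 11.1% of members and 4.66% of protein-coding genes. The mitochondrial ribosomal protein genes held both more often than the members, at 43.5% for the ETS letters and 30.4% for the YY1 letters, and none of the 69 held TATAA in its window. The reverse complement of the ETS letters holds C and T that can be part of a run. These counts describe the gene starts and were not measured in the cells.

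The values below are log2 expression values made with RMA, which gives 1 value per probe set. RMA brings the arrays close to a common distribution, so a change of all transcripts at once would not show. Array medians still differed slightly, at 3.37 and 3.41 on the SSRP1 siRNA arrays and 3.40 and 3.42 on the control siRNA arrays. SSRP1 itself was at 7.42 and 6.97 on the SSRP1 siRNA arrays and at 9.05 and 9.23 on the control siRNA arrays. Its log2 change was -1.95 ± 0.17 (SE, limma adjusted p = 0.0479), which left 26.0% of the control level. That call is lost with the replicate number as a block (adjusted p = 0.0569), with robust variances (0.0512), over all probe sets (0.144), and without any 1 array (0.241 to 0.599). Pearson correlations over all probe sets were 0.991 between the SSRP1 siRNA arrays, 0.993 between the control siRNA arrays and 0.990 to 0.991 across groups. Of 8 noradrenergic neuroblastoma markers 7 were measured, with mean log2 values between 6.52 and 9.20 against a median over all genes of 4.64. Averaged over these 7 the level was 8.24 and 8.32 on the SSRP1 siRNA arrays and 8.60 and 8.57 on the control siRNA arrays. Averages were 5.97 and 5.86 against 5.60 and 5.29 for 3 measured fibroblast markers, 4.85 and 4.70 against 4.66 and 4.58 for 4 Schwann and glial markers, and 3.24 and 3.32 against 3.43 and 3.45 for 2 blood and endothelial markers. All 7 noradrenergic markers had changes below 0, and DBH (-0.77), HAND2 (-0.38) and TH (-0.34) had an unadjusted p under 0.05. So had LUM (1.20) among the fibroblast markers, where THY1 was at 0.25 and DCN at -0.04, and S100B (0.47) among the Schwann and glial markers. No marker passed the test. The part of these differences in the results below was not tested. In bulk RNA, fewer cells of a type and less RNA per cell cannot be told apart.

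As a family the ribosomal protein genes held close to their control level. None of the 50 passed limma's test (Benjamini-Hochberg adjusted p under 0.05 over all genes), where 0.0945% of all genes did, 14 in number. At an unadjusted p under 0.05 there were 4 members (8%), against 12.6% of all genes, and the difference between these shares was not tested. Of these, 3 were higher with SSRP1 siRNA, RPS15A, RPL9 and RPL32, against a background of 6.56% of all genes, and 1 was lower, RPL22L1, against 6.03%. The count of 3 became 1 over all probe sets, where 4.43% of sets were higher. The count of 1 became 2 with a variance trend, where 6.69% of all genes were lower. Each count also moved when some single arrays were left out.

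Most members had narrow intervals, for the spread of these samples alone, which may be technical. The widths also draw on all genes, with 2 residual and 3.79 prior degrees of freedom. The size of the log2 change was under 0.25 for 45 of 50 members (90.0%), against 80.2% of all genes. The 95% interval of the change lay within -0.5 to 0.5 for 41 members (82.0%), against 64.8% of all genes. The 9 with a wider reach were RPL22L1, RPS15A, RPL9, RPL32, RPS16, RPL36, RPL29, RPS26 and RPL26L1. The median standard error was 0.104 for the members and 0.117 over all genes, and the median spread within groups (residual SD) was 0.0661 and 0.112. Among genes at or above the median level, the change was under 0.25 in size for 91.5% of 47 members and 78.4% of genes. There the interval lay within -0.5 to 0.5 for 83.0% and 68.8%, and the median residual SD was 0.0653 and 0.0919.

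Small positive changes outnumbered negative ones. The change was above 0 for 37 of 50 members (74.0%), where 48.3% of all genes lay above 0, and the median change was 0.04, against -0.01 over all genes. Averaged over the 50 members, the level was 7.15 and 7.17 on the SSRP1 siRNA arrays and 7.11 and 7.10 on the control siRNA arrays. Both SSRP1 siRNA arrays thus lay above both control arrays, by a few hundredths of a log2 unit. Neither this order nor the shares given here were tested. Members are not replicates of a condition, and each group has 2 arrays. Both SSRP1 siRNA values lay above both control values for 20 members (40%, background 21.8%) and below them for 3 members (6%, background 22.5%). After quantile normalization these counts were 13 and 5, against 21.3% and 22.8% of all genes. Among genes at or above the median level, the shares above and below were 38.3% and 6.38% of members, against 27.7% and 25.7% of genes. The median change of the members was 0.09 without SSRP1 siRNA replicate 1, 0.04 without SSRP1 siRNA replicate 2, and 0.05 without either control array.

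**Figure D1:**
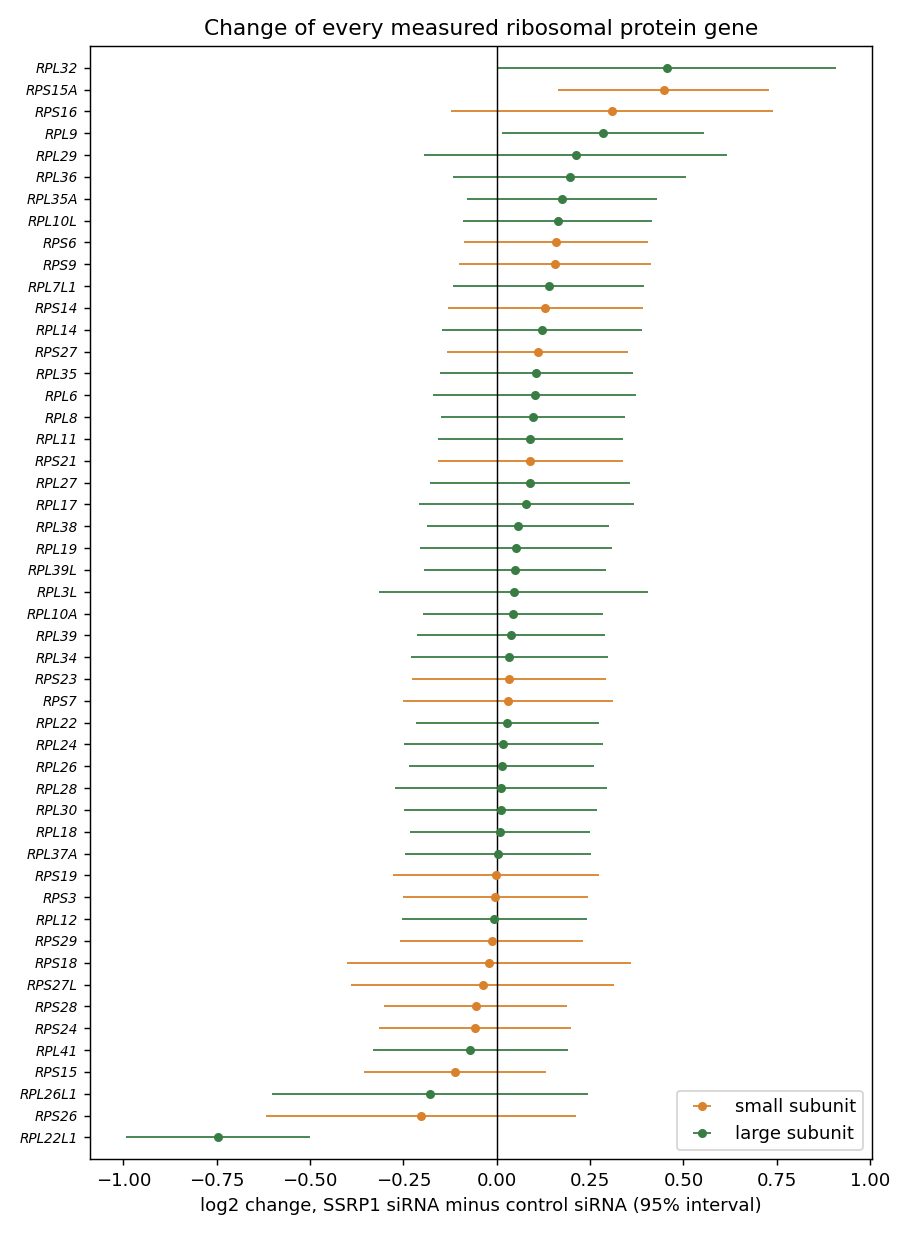
Log2 change (SSRP1 siRNA minus control siRNA, horizontal axis) with its 95% interval for each of the 50 members, ordered by change, with small subunit genes in orange and large subunit genes in green. RPL22L1, at -0.75, stands at the foot of the plot, and 45 of the 50 points lie within 0.25 of zero.

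The 20 members whose SSRP1 siRNA values all lay above the control values were RPS6, RPS9, RPS14, RPS15A, RPS16, RPS21 and RPS27 of the small subunit, and RPL7L1, RPL8, RPL9, RPL10A, RPL10L, RPL11, RPL14, RPL32, RPL35, RPL35A, RPL36, RPL38 and RPL39L of the large subunit. The 3 whose values all lay below were RPL22L1, RPS15 and RPS28. The other 27 overlapped between the groups.

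**Figure D2:**
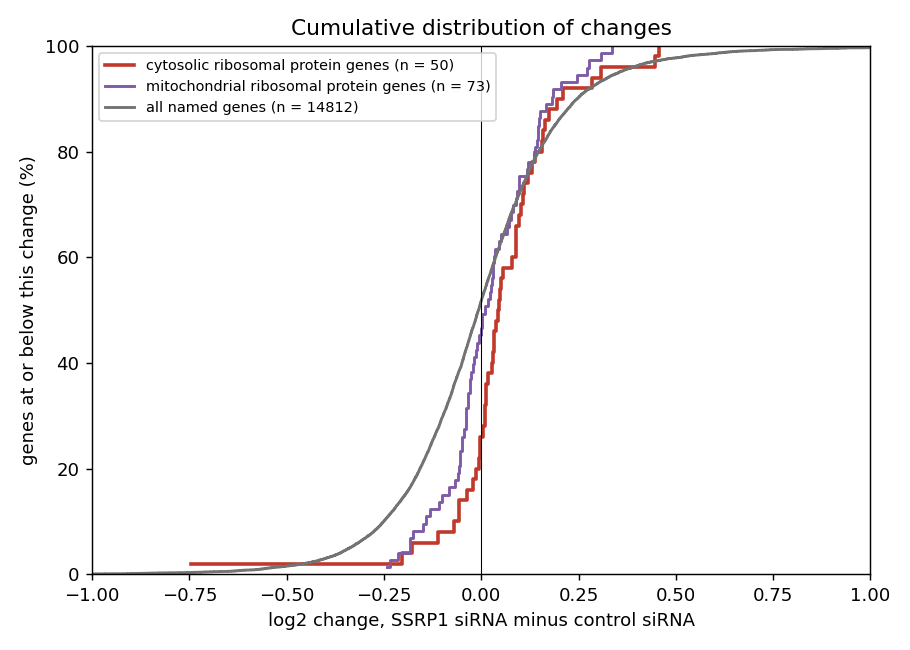
Cumulative share of genes (vertical axis, %) at or below a given log2 change (horizontal axis, SSRP1 siRNA minus control siRNA, drawn from -1 to 1) for 50 cytosolic ribosomal protein genes, 73 mitochondrial ribosomal protein genes and all 14812 genes. The curve of the cytosolic genes is steep around its median of 0.04, and its lowest step at -0.75 is RPL22L1.

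RPL22L1 had the largest change and the smallest p among the members. It encodes a paralogue of RPL22, an RNA-binding protein of the large subunit, and in mouse RPL22 is known to hold down the paralogue's mRNA. RPL22L1 was at 4.98 and 4.90 on the SSRP1 siRNA arrays and at 5.67 and 5.70 on the control siRNA arrays. The replicates differed by less than 0.1 in each group, and the groups lay well apart. The log2 change was -0.75 ± 0.10 (SE), a level of 59.6% of control with a 95% interval of 50.3 to 70.8%. Its p ranked 51 among the 14812 genes, and the limma adjusted p of 0.103 missed the threshold. It passed with a variance trend (adjusted p = 0.0271) and when the test was kept to genes at or above the median level (adjusted p = 0.0163). More genes passed in these settings, 1.45% and 2.42% of those tested, against 0.0945% in the main fit. In the other alternatives the adjusted p lay between 0.0820 and 0.599, and without any 1 array the change lay between -0.78 and -0.71.

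RPL22 itself was at 5.37 and 5.36 on the SSRP1 siRNA arrays and at 5.36 and 5.30 on the control siRNA arrays. The groups overlapped, and the log2 change was 0.03 ± 0.10 (SE), with a 95% interval from -0.22 to 0.27 (limma adjusted p = 0.936). That interval does not reach the interval of RPL22L1, which ran from -0.99 to -0.50. The difference between the 2 changes was not tested.

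**Figure D3:**
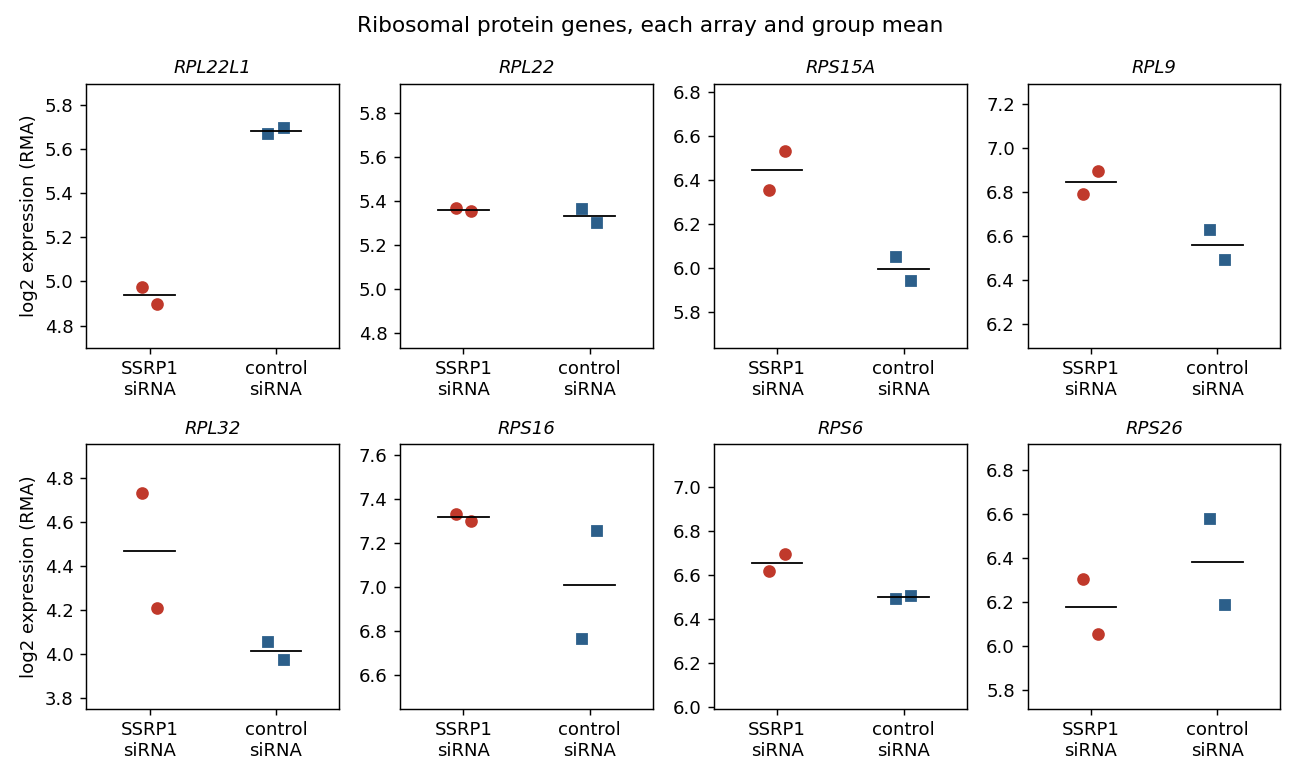
Log2 expression (vertical axis, all panels with the same span) of 8 members on each SSRP1 siRNA array (red circles, left) and each control siRNA array (blue squares, right), with bars at the group means. RPL22L1 separates the groups with tight replicates, RPL22 does not, and the spread of RPL32, RPS16 and RPS26 comes from 1 or both groups.

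RPS15A, a protein of the small subunit, had the smallest p among the members with a positive change. It was at 6.35 and 6.53 on the SSRP1 siRNA arrays and at 6.05 and 5.94 on the control siRNA arrays. The groups did not overlap, and the log2 change was 0.45 ± 0.11 (SE, 95% interval 0.16 to 0.73, limma adjusted p = 0.246). RPL9, of the large subunit, was at 6.79 and 6.90 on the SSRP1 siRNA arrays and at 6.63 and 6.49 on the control siRNA arrays. Its log2 change was 0.28 ± 0.11 (SE, limma adjusted p = 0.381), and its interval, 0.01 to 0.56, came close to 0.

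RPL32, also of the large subunit, had the highest change of all members, 0.46 ± 0.18 (SE, limma adjusted p = 0.393), with a wide interval of 0.004 to 0.91. It was at 4.73 and 4.21 on the SSRP1 siRNA arrays and at 4.05 and 3.97 on the control siRNA arrays. The high value of SSRP1 siRNA replicate 1 carried much of the difference, and the change was 0.19 without that array and 0.72 without SSRP1 siRNA replicate 2. CAND2, a gene that overlaps RPL32 in RefSeq, had a log2 change of -0.37 ± 0.10 (SE, limma adjusted p = 0.277), of opposite sign.

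In the small subunit 9 of 18 members lay above 0 and 9 below, with a median change of 0.01. RPS16, a protein of the head of the subunit, was at 7.33 and 7.30 on the SSRP1 siRNA arrays and at 6.76 and 7.26 on the control siRNA arrays, a change of 0.31 ± 0.17 (SE). The low value of control siRNA replicate 1 made most of that difference, which was 0.06 without that array and 0.56 without control siRNA replicate 2. RPS6, the substrate of the S6 kinases, was at 6.62 and 6.69 against 6.49 and 6.50, a change of 0.16 ± 0.10 (SE) with close replicates.

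At the lower end of the small subunit, RPS26, which lines the exit of the mRNA channel, was at 6.30 and 6.05 on the SSRP1 siRNA arrays and at 6.58 and 6.18 on the control siRNA arrays. The groups overlapped, with a change of -0.20 ± 0.17 (SE). That change was -0.0056 without control siRNA replicate 1 and -0.40 without control siRNA replicate 2. RPS15 was at 11.59 and 11.53 against 11.67 and 11.68, a change of -0.11 ± 0.10 (SE), and RPS24 had a change of -0.06 ± 0.10 (SE). RPS19, the gene most often mutated in Diamond-Blackfan anaemia, was at 10.29 and 10.47 on the SSRP1 siRNA arrays and at 10.40 and 10.35 on the control siRNA arrays. Its change was -0.002 ± 0.11 (SE), and its sign turned after median centring (0.02). Limma adjusted p-values of these 6 small subunit genes lay between 0.542 and 0.996.

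In the large subunit 28 of 32 members lay above 0 and 4 below, with a median change of 0.05. The difference in these counts from the small subunit was not tested, and the mean change was 0.05 in both subunits. RPL29 was at 6.11 and 6.26 on the SSRP1 siRNA arrays and at 6.18 and 5.76 on the control siRNA arrays, a change of 0.21 ± 0.16 (SE) that was -0.0007 without control siRNA replicate 2. RPL11, which with RPL5 and 5S ribosomal RNA can bind the p53 regulator MDM2, was at 9.77 and 9.80 against 9.65 and 9.74, a change of 0.09 ± 0.10 (SE). RPL41, which encodes the shortest of these proteins, had a change of -0.07 ± 0.11 (SE).

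Of the 7 measured paralogues 4 had changes above 0 and 3 below. Besides RPL22L1 there were 6, and none of these 6 had an unadjusted p under 0.05. RPL7L1 had a change of 0.14 ± 0.10 (SE), with 7.01 and 6.95 on the SSRP1 siRNA arrays and 6.79 and 6.90 on the control siRNA arrays. RPL26L1 was at 4.80 and 5.26 against 5.14 and 5.28, a change of -0.18 ± 0.17 (SE) that became 0.05 without SSRP1 siRNA replicate 1, and its main gene RPL26 had a change of 0.01 ± 0.10 (SE). RPL39L, used in the testis, and its main gene RPL39 had changes of 0.05 and 0.04. RPS27L, a p53 target in human cells, was at 3.22 and 2.94 on the SSRP1 siRNA arrays and at 3.23 and 3.01 on the control siRNA arrays, a change of -0.04 ± 0.14 (SE), and RPS27 had a change of 0.11 ± 0.10 (SE).

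The heart and skeletal muscle paralogue RPL3L had a change of 0.05 ± 0.15 (SE) and the testis paralogue RPL10L a change of 0.16 ± 0.10 (SE). RPL10L (1.97 over the 4 arrays) and RPS27L (3.10) lay below the median level of all genes, as did RPL32, and no background values were used here to say whether such values rise above background. The main genes RPL3, RPL7 and RPL10 are not analysed here.

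**Figure D4:**
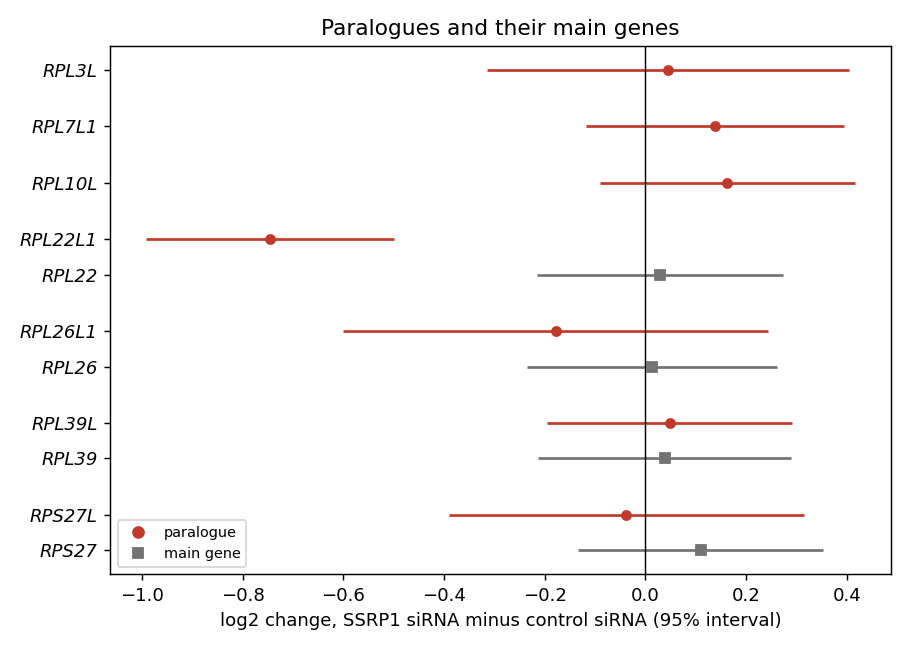
Log2 change (SSRP1 siRNA minus control siRNA, horizontal axis) with its 95% interval for 7 paralogues (red circles) and their 4 measured main genes (grey squares). Of these 11 intervals the one of RPL22L1, -0.99 to -0.50, is the one that does not include 0.

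Members linked to disease or to p53 had changes close to those of the family. Of 21 Diamond-Blackfan anaemia genes of this family 16 were measured, 11 above 0 and 5 below, with a median change of 0.06. RPS15A and RPL9 were the 2 among them at an unadjusted p under 0.05 (12.5%, against 12.6% of all genes), a share at the background. RPL35A came next, at 5.45 and 5.43 on the SSRP1 siRNA arrays and 5.32 and 5.21 on the control siRNA arrays. Of 10 members whose products are reported to bind MDM2, 7 were measured, none at an unadjusted p under 0.05, with changes between -0.04 and 0.13.

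Members with and without a TOP-like run at the annotated start had close median changes. Members with a run of at least 5 at the start had a median change of 0.03 (22 of 29 above 0), and those without had a median of 0.05 (10 of 16 above 0). These are descriptions of named genes, with no test between them. A run that begins beside the annotated base was not counted, so the split cannot show which mRNAs carry a TOP tract.

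Several members have more than 1 probe set or an uncertain origin. RPL41 had 5 probe sets, with changes between -0.10 and 0.03, and RPL19, RPL39 and RPS18 had 2 each, with changes between -0.02 and 0.05. The probe sets of RPS27, RPS28 and RPS18 carry ID numbers whose 20 nearest named sets all lie on another chromosome than the gene, and whether they were designed on a copy there was not tested. Those of RPL41 and RPL12 sit among sets of mixed chromosomes. Without these 5 members the count above 0 was 36 of 45 and the median change 0.05. Ribosomal protein genes have many processed pseudogenes of near-identical sequence, and how much these add to a member's signal was not measured. Of 25 named pseudogenes of the family 12 lay above 0 and 13 below, with a median change of -0.03, and 2 were higher and 4 lower at an unadjusted p under 0.05 (24.0% in all, against 12.6% of all genes). Those with the smallest p were RPL31P11 (0.42), RPL23AP82 (-0.29, but 0.12 as the mean of its probe sets) and RPL23P8 (-0.35).

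The mitochondrial ribosomal protein genes are the family most like this one. Of 73 measured, none passed limma's test, where 0.0945% of all genes did. At an unadjusted p under 0.05, 3 were higher and none lower (4.11%, against 12.6% of all genes). The 3 were MRPL35 (0.33), MRPL30 (0.27) and MRPL17 (0.28). The change was above 0 for 39 of 73 (53.4%, background 48.3%), and the median was 0.01. Both SSRP1 siRNA values lay above both control values for 27.4% (background 21.8%) and below them for 12.3% (background 22.5%). The difference of these shares from those of the cytosolic genes was not tested.

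Other genes of ribosome production and its control also gave no call, where 0.0945% of all genes were called. Of 19 listed genes with TOP mRNAs outside this family, such as those of elongation factors, 12 were measured. Of these 12, 5 lay above 0 (41.7%, background 48.3%). The median change of the 12 was -0.04. EEF2, the translocation factor, had the smallest p, at 11.82 and 11.80 on the SSRP1 siRNA arrays and 11.67 and 11.66 on the control siRNA arrays (0.14), followed by EEF1G (0.13) and NAP1L1 (0.12). Of 34 listed initiation factors only 7 were measured, and 6 of these lay above 0 (85.7%, background 48.3%). Among them EIF6, which keeps unfinished large subunits from joining, was at 0.12, EIF5 at 0.11 and EIF5A at 0.19 (-0.08 without SSRP1 siRNA replicate 2).

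Of 41 measured large subunit assembly factors 26 lay below 0 and 15 above (36.6% above, background 48.3%), with a median of -0.04. Both SSRP1 siRNA values lay below both control values for 19 of them (46.3%, background 22.5%) and above for 7 (17.1%, background 21.8%). NOC3L was at 7.08 and 7.07 on the SSRP1 siRNA arrays and at 7.41 and 7.42 on the control siRNA arrays (-0.34), and HEATR3 and ZNF622 had changes of 0.26 and 0.22. Of 27 measured small subunit factors 15 lay below 0 and 12 above (44.4% above, near the background), and the groups lay apart downward for 10 (37.0%) and upward for 4 (14.8%). Among these factors were the rRNA methyltransferase gene DIMT1 at -0.32, HEATR1 at -0.31 and WDR36 at -0.25. Of the genes named here NOC3L and DIMT1 had an unadjusted p under 0.05, with limma adjusted p of 0.283 and 0.327.

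Of 19 listed RNA polymerase I genes 6 were measured, and 4 of these lay below 0. The nucleolar protein gene NOLC1 was at -0.24, the initiation factor gene RRN3 at 0.21 and the transcript release factor gene CAVIN1 at -0.15. Of 28 listed genes of mTORC1, its regulators and TOP-binding proteins 17 were measured, and 14 of these lay above 0 (82.4%, background 48.3%). Among the 17 was DEPTOR, an inhibitor of mTOR. It was at 6.20 and 6.26 on the SSRP1 siRNA arrays and at 6.63 and 6.54 on the control siRNA arrays. Its change was -0.36 ± 0.10 (SE, limma adjusted p = 0.281). TIA1, which binds TOP mRNAs, had a change of 0.24 and TSC2, which restrains mTORC1, a change of 0.22. No gene of these 6 lists passed the test, which at 0.0945% of all genes is near the background for lists of this size.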

How the data were processed

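RNA of 4 samples was hybridised to Affymetrix Human Gene 2.0 ST arrays. The authors deposited 1 log2 value per probe set and array, and the submitters' processing notes name RMA. Software, version and the definition of a probe set were not given in the sources used here. The log2 scale was read from the values (0.502 to 12.8).

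Gene names came from the platform annotation, updated by RefSeq (GRCh38.p14). Of 46255 sets, 15835 had 1 gene symbol, none had several, and 30420 were unnamed and left out. The probe set of highest mean level stood for each symbol, which gave 14812 genes. Samples were grouped by title.

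Limma 3.58.1 in R 4.3.3 (lmFit and eBayes, no trend, not robust) was fitted over all genes, SSRP1 siRNA minus control siRNA, with 2 residual and 3.79 prior degrees of freedom. Single-gene tests are two-sided, with Benjamini-Hochberg adjustment over all genes. The script was tested on simulated data with independent noise, for the mean size of the change alone. No limit was set there on false calls. Precision is limited by the number of arrays.

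Members and lists were chosen with earlier results of these data known. Genes given with values are SSRP1, RPS15A, members at an unadjusted p under 0.05, the 3 highest and 3 lowest changes per subunit, paralogues with their main genes, a fixed set of members of known role, and the 3 smallest p of each other list. CAND2, RPL35A and genes named only in counts were named after their values were seen. Small nucleolar RNAs inside member genes, planned as a list, are not analysed here. Promoter sequences are from RefSeq. Alternatives are given in the closing section.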

Additional observations from a re-analysis of the deposited data

How the results depend on the processing

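The 2 arrays a group limit the precision, with a median standard error of 0.104 for the members on the log2 scale. Signal over background was not used here, so values of dim probe sets may lie near it. The count of members past the test was 1 of 50 with a variance trend, where 1.45% of all genes passed. It was 1 of 47 when genes below the median level were left out, where 2.42% of genes passed. RPL22L1 was the member both times, and both counts are near the background for lists of this size. The count was 0 in the other settings with all 4 arrays, an adjusted p under 0.1 included. With the trend, 2 members were lower at an unadjusted p under 0.05, against 6.69% of all genes. Over all probe sets, 1 was higher, against 4.43% of sets. Quantile normalization gave 13 members with groups apart upward and 5 downward, against 21.3% and 22.8% of all genes. Median centring moved the median change to 0.0649, with the median of all genes at 0.01, and turned RPS19 (0.0187). It put 42 members above 0, and the share of all genes above 0 also rose, to 53.2%. Averaging probe sets per gene turned RPL23AP82 (0.12). With the replicate number as a block the change of RPL22L1 was -0.75 (adjusted p = 0.109), the median was 0.04 and the counts stayed within 1.5 times. Deviations of same-numbered samples correlated at 0.114 over genes, and 2 pairs do not show pairing. Leaving out each array gave 8 to 9 members with groups apart downward, where 3 arrays give 36.2 to 37.4% of all genes. The median change of the members was then 0.0425 to 0.0886. Changes that turned sign without an array ranged from -0.12 to 0.00555 for RPS24, -0.18 to 0.10 for RPS27L, -0.0927 to 0.0884 for RPS19, -0.0007 to 0.42 for RPL29, -0.13 to 0.22 for RPL3L, -0.004 to 0.0616 for RPL22, -0.0232 to 0.0499 for RPL26, -0.41 to 0.0516 for RPL26L1, -0.015 to 0.091 for RPL39 and -0.0755 to 0.45 for EIF5A. None of these 10 had an unadjusted p under 0.05. The count of changes above 0, and the settings without paralogues and without members of uncertain probe set origin, were added after seeing the data. Without paralogues 0 members were lower at an unadjusted p under 0.05, since RPL22L1 is one.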
